A study of Homo sapiens with 18 samples.

Results

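Proteasome subunit genes were followed in PC-3 prostate cancer cells held in suspension after a brief pulse of fluid shear stress. The genes were taken by symbol: every row of the count table whose NCBI Gene ID has a symbol starting with PSMA, PSMB, PSMC, PSMD or PSME followed by a number, other than PSMB8, PSMB9 and PSMC3IP. This gave 41 of the 28395 Gene IDs: 17 genes of the core particle, 17 of the regulatory particle, 3 chaperones that assemble the base of the regulatory particle (PSMD5, PSMD9, PSMD10) and 4 subunits of other activators (PSME1 to PSME4). The chaperones and the activators share the naming series but are not subunits of the standard complex. Of the 41 genes, 39 passed the filter on low counts. The other two are germline or thymus forms: PSMB11 had 0 counts in all 18 libraries and PSMA8 had 1 count in total.

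The proteasome degrades proteins that carry ubiquitin chains. Its core particle is a barrel of stacked rings: outer alpha rings (PSMA genes) gate the entrance, and inner beta rings (PSMB genes) hold the proteolytic sites, which PSMB5, PSMB6 and PSMB7 provide in most cells. The regulatory particle caps the barrel. Its base holds a ring of ATPases (PSMC genes) that unfold substrates, with the scaffold subunits PSMD1 and PSMD2 and the ubiquitin receptor PSMD4, and its lid holds the deubiquitinase PSMD14. The subunits are known to be induced together by the transcription factor NFE2L1 when proteasome activity falls short.

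PC-3 is a human prostate cancer cell line. Cells were detached, suspended, and either forced through a fine needle by syringe (sheared) or held in suspension meanwhile (static). Both were then kept unattached, in poly-HEMA coated wells and in serum-free medium with insulin, transferrin, selenium and albumin, and sampled 3 h, 12 h or 24 h after the exposure. This gave 6 groups of 3 libraries: static and sheared cells at 3 h, at 12 h and at 24 h. Within a time, the sheared and static libraries of equal replicate number derive from a shared pool, and each shear comparison held 3 pairs, while times share no pool. All cells, the static controls too, had been detached and suspended, and cells from before suspension were not analysed here. RNA was taken from the cytosol after detergent lysis, so every level below is a level in that fraction, and neither protein nor proteasome activity was measured.

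Libraries held 16400487 to 25862360 counts. Normalization factors (TMM, trimmed mean of M values) lay between 0.721 and 1.11, and the lowest belonged to the third sheared 24 h library, which also had the fewest genes detected (17007). The 3 h libraries carry another batch date than the rest, so a change from 3 h to 12 h cannot be told apart from that batch. All 6 genes listed for PC-3 (KRT8, KRT18, KRT19, EPCAM, VIM and CD44) exceeded 1 CPM (the count scaled to library size by convention) in every group, with sums from 3284 to 10526 CPM. The summed level of 8 haematopoietic markers stayed between 0.675 and 2.62 CPM. Of these only LYZ had a group mean above 1 CPM, at 1.10 ± 0.248 CPM (SD, n = 3) in static 24 h cells. Of 7 fibroblast and endothelial markers, 2 (PECAM1 and COL1A1) exceeded 1 CPM, and their list summed to 23.4 to 31.3 CPM in static 3 h cells and 101 to 142 CPM in later static cells. Of 7 genes of androgen-dependent prostate cells, 4 exceeded 1 CPM and 1 was at 0 in all libraries. The sum of 3 nuclear-retained RNAs ran from 48.6 to 174 CPM in the other groups and from 50.9 to 477 CPM in sheared 24 h cells.

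Promoter sequences are shown for members in which the recognition pattern of NFE2L1 and related factors can be read directly. RefSeq (GRCh38.p14) listed 40 promoters, from 250 bases before to 50 bases after a start site, for 34 of the 39 tested members, and none for PSMA7, PSMB1, PSMB6, PSMB7 and PSMD4. The antioxidant response element core TGACNNNGC, searched on both strands, was found in 12 of the 40 (30.0%), against 13.3% of all 35116 listed promoters. The 6 printed below, 5′ to 3′ on the strand of the gene, were taken first by the number of matches and then by the smallest p of a shear comparison. Capitals mark TGACNNNGC or its reverse complement.
PSMD9 (chr12:121888540-121888839, + strand): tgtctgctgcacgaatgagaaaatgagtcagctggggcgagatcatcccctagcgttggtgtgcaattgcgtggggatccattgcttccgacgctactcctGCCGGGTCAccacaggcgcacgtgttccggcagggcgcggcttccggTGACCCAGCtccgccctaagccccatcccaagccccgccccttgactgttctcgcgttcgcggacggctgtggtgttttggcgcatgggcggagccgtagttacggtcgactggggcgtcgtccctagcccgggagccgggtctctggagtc
PSMD3 (chr17:39980557-39980856, + strand): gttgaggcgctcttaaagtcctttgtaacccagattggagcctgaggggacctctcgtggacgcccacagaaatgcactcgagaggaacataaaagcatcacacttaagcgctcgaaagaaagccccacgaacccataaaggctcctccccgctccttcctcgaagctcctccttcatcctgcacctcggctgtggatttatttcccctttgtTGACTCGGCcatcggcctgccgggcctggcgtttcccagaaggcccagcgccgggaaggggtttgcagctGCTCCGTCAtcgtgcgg
PSMB3 (chr17:38752491-38752790, + strand): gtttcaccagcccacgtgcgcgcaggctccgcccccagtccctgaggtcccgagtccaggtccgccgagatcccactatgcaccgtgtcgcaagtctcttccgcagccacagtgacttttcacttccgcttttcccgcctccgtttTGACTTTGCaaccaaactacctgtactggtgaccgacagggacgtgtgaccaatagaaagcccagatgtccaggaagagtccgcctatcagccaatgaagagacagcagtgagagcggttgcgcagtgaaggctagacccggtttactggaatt
PSMD5 (chr9:120842873-120843172, - strand): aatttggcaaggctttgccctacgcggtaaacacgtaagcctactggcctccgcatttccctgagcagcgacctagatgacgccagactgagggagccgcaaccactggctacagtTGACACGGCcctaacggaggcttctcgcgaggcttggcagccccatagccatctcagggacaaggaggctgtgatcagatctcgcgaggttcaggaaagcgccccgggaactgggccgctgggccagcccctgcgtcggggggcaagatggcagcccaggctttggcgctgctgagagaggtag
PSMA4 (chr15:78540536-78540835, + strand, 1 of 3 listed starts): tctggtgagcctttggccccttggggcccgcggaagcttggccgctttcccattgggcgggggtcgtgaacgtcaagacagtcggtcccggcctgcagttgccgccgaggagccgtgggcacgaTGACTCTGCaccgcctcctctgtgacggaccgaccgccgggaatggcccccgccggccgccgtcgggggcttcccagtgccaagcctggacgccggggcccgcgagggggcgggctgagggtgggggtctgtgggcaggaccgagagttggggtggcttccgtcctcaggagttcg
PSMD12 (chr17:67366528-67366827, - strand): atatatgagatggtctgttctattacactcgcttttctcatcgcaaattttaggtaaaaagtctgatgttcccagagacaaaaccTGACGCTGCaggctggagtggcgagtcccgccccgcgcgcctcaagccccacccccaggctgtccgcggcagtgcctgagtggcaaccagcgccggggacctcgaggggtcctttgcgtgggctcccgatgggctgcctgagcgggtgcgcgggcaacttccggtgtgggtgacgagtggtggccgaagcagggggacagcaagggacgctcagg
With the start site counted as base 0, the first matching base lay at -149 and -102 in PSMD9, at -37 and 33 in PSMD3, at -104 in PSMB3, at -134 in PSMD5, at -126 in PSMA4 and at -165 in PSMD12. Overlap between patterns was not removed. The pattern occurred in 2 of 15 core particle promoters and 5 of 18 regulatory particle promoters, beside 13.3% of all promoters. The remaining matches were in PSMD5, PSMD9, PSME1, PSME2 and PSME4, which are base chaperones or other activators. CCGGAAG, a core pattern bound by ETS factors, was found on either strand in 12 of the 40 promoters (30.0%) and in 10.3% of all promoters, with 1 of 15 for the core particle and 9 of 18 for the regulatory particle. CCAAT was found in 17 (42.5%, against 34.6% of all) and CACGTG, the E-box, in 3 (7.5%, against 7.26%). A match describes these letters only. Of the printed members, PSMB3 was the one called between sheared and static cells, PSMD3, PSMD12 and PSMD5 were lower at 12 h than at 3 h in static cells, and PSMD9 and PSMA4 were called in neither.

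Levels in static cells at 3 h spanned a wide range per length of transcript. Divided by transcript length in kilobases (the median of the gene's protein-coding transcripts in GENCODE 29), PSMA7, an alpha ring subunit, was the most abundant at 299 ± 13 CPM per kb (SD, n = 3). PSMD2, a scaffold of the base, followed at 295 ± 43.1, and PSMA3 of the alpha ring at 287 ± 24.2. These first 3 levels do not differ beyond their spread. At the low end were PSMB10, the interferon-inducible form of the PSMB7 subunit, at 11.5 ± 1.86 CPM per kb, PSME4, a large nuclear activator, at 18.8 ± 1.58 and PSMD9 at 29.4 ± 0.390. The 3 standard catalytic subunits had 206 ± 7.16 (PSMB5), 134 ± 5.44 (PSMB6) and 95 ± 8.74 (PSMB7) CPM per kb. The 39 tested genes together took 0.686% to 0.756% of the counts of static 3 h libraries, 0.522% to 0.619% of those of static 24 h libraries and 0.450% to 0.639% of those of sheared 24 h libraries.

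**Figure D1:**
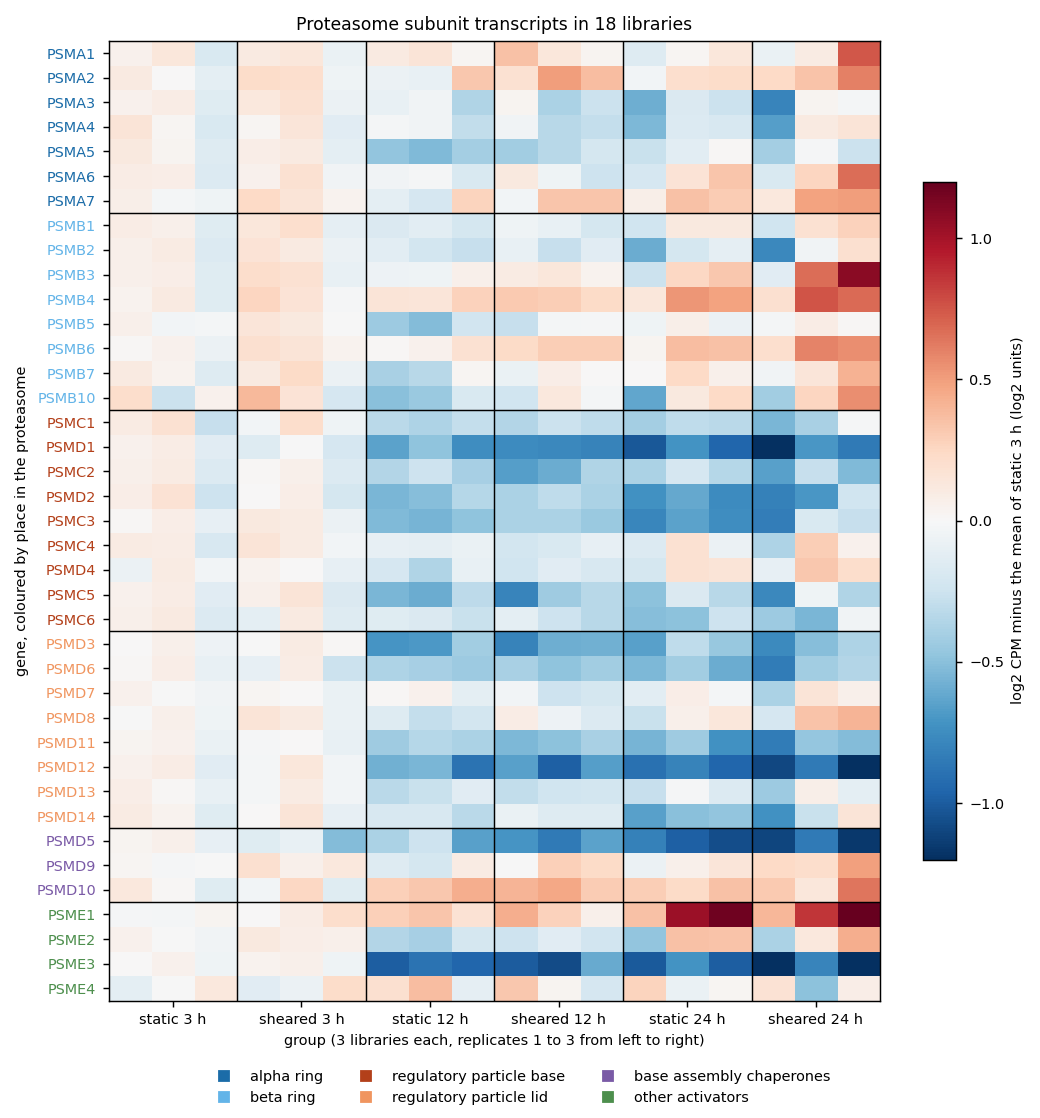
Each row is 1 of the 39 tested genes and each column 1 of the 18 libraries, with the colour giving log2 CPM minus the mean of the 3 static 3 h libraries and black lines separating groups and subcomplexes. PSMD1, PSMD12, PSMD5 and PSME3 are blue from 12 h on in both treatments, and PSME1 is red in the 24 h libraries.

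The shear comparison asks which transcripts a single short exposure leaves changed hours later. At 3 h, none of the 39 members passed the threshold (adjusted p below 0.05 in the edgeR quasi-likelihood test), when 1.46% of all 15189 genes did, and none had an unadjusted p below 0.05. At 12 h again none of 39 passed, against 10.8% of all genes, and 4 had an unadjusted p below 0.05. At 24 h, 1 of 39 passed, against 17.2% of all genes, and 7 had an unadjusted p below 0.05. Over all 15189 genes, 1396, 3993 and 4776 had an unadjusted p below 0.05 in the same test at the 3 times. DESeq2 called 0, 0 and 1 members at the 3 times, beside 304, 1873 and 2867 of 15189 genes.

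The member called at 24 h was PSMB3, a structural subunit of the beta ring. It stood at 93.0, 132 and 139 CPM in the 3 static 24 h libraries and at 101, 177 and 236 CPM in the sheared libraries of the same pools. Each sheared library was above its own static library, by 0.12, 0.42 and 0.76 on the log2 scale, but the groups overlap, and the highest value belongs to the library with the lowest normalization factor. The fitted log2 fold change was 0.44 (SE 0.12, adjusted p = 0.015). Without replicate 3 of 24 h the value was 0.29 with an adjusted p of 0.13, and without the block for pools it was 0.50 with an adjusted p of 0.18. It was 0.27 with total counts as the scale (adjusted p = 0.080) and 0.44 with the 24 h libraries alone (adjusted p = 0.14).

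The catalytic subunits showed small differences with intervals that include or nearly touch zero. PSMB5, which carries the chymotrypsin-like activity, had 153, 145 and 178 CPM in static and 171, 204 and 206 CPM in sheared 12 h libraries. The ranges overlap by a single library, and the log2 fold change of 0.29 (95% interval 0.072 to 0.51) did not pass (adjusted p = 0.082, edgeR). At 3 h and 24 h its log2 fold changes were 0.086 and 0.043. PSMB6, the caspase-like subunit, had 117, 120.3 and 132 CPM in static and 135, 142 and 142 CPM in sheared cells at 12 h. These groups do not overlap, yet the test did not call PSMB6 (log2 fold change 0.19, 95% interval -0.015 to 0.39). PSMB7, the trypsin-like subunit, had log2 fold changes of 0.091, 0.24 and 0.069 at the 3 times. PSMB10 was low throughout, at 9.04, 15.1 and 16.4 CPM in static and 10.4, 16.6 and 20.5 CPM in sheared 24 h libraries, and its 24 h log2 fold change of 0.22 had the interval -0.13 to 0.56.

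In the alpha ring, PSMA2 had the smallest p at 12 h and at 24 h. It had 147, 174 and 176 CPM in static and 178, 192 and 231 CPM in sheared 24 h libraries. The sheared values all lie above the static ones, and the log2 fold change was 0.27 (95% interval 0.031 to 0.50, adjusted p = 0.11, edgeR). PSMA7 had log2 fold changes of 0.15, 0.23 and 0.13 in time order, none past the threshold. Without 24 h replicate 3, PSMA2 and PSMB5 passed the threshold at 12 h, although that library is of another time. That fit called 2691 of 15448 genes at 12 h, against 1647 of 15189 in the main fit. Over the 15 tested core genes the median log2 fold change was 0.086 at 3 h, 0.11 at 12 h and 0.15 at 24 h, beside 0.0054, -0.0079 and -0.021 over all genes. With total counts as the scale the core medians were 0.037, -0.046 and -0.013, so their sign at 12 h and 24 h depends on the normalization. Fitted values above zero were found for 15 of 15 core genes at 3 h, 13 of 15 at 12 h and 14 of 15 at 24 h under TMM. Over all 15189 genes these counts were 7791, 7456 and 7256. Within pools, 11, 7 and 9 of the 15 core genes were higher in all 3 pairs, and 0 were lower in all 3.

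The regulatory particle showed no called gene: 0 of its 17 passed at 3 h, 12 h or 24 h in edgeR, beside 1.46%, 10.8% and 17.2% of all genes. An unadjusted p below 0.05 in edgeR was found for 0, 0 and 2 of the 17, beside 1396, 3993 and 4776 of 15189 genes. In DESeq2 0 of the 17 passed, beside 304, 1873 and 2867 of 15189 genes. Medians were 0.013, -0.031 and -0.012, with 9, 6 and 8 of 17 values above zero. At 24 h PSMC3, an ATPase of the base, had the smallest p of the regulatory particle. Its values were 132, 145 and 136 CPM in static and 128, 199.7 and 187 CPM in sheared libraries. The first sheared library lies below all static ones, and the log2 fold change of 0.29 did not pass (95% interval 0.057 to 0.53, adjusted p = 0.081, edgeR). PSMD14, the lid deubiquitinase, had 168, 168 and 153 CPM in static and 181, 172 and 172 CPM in sheared cells at 12 h. Its groups do not overlap, but the log2 fold change there was 0.11 (95% interval -0.15 to 0.36). Without 24 h replicate 1, PSMC3 and PSMD14 passed at 24 h beside PSMB3, in a fit that called 2107 of 15536 genes.

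Other base and lid subunits had values of either sign, none of them called. The ATPase PSMC2 had -0.21 at 12 h and -0.18 at 24 h, the lid subunit PSMD8 had 0.17 and 0.21, and PSMD12 had -0.17 at 24 h. PSMC4, an ATPase, had log2 fold changes of 0.073, -0.070 and 0.012 in time order. The receptor PSMD4 had -0.017, 0.033 and 0.10. The lid scaffold PSMD11 had -0.035, -0.084 and -0.039. PSMD1, the large scaffold of the base, was lower in each mean, with 114, 127 and 106 CPM in static and 105, 103 and 102 CPM in sheared 12 h libraries. These groups do not overlap, and the fold change of -0.16 on the log2 scale did not pass (95% interval -0.39 to 0.082).

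Of the assembly chaperones, PSMD5, which holds base subunits during assembly, had the lowest fitted shear value at both early times. At 3 h it had 51.6, 52.5 and 47.2 CPM in static and 45.5, 47.5 and 35.1 CPM in sheared libraries, a log2 fold change of -0.25 (95% interval -0.53 to 0.033, adjusted p = 0.63, edgeR). Only 1 of the sheared libraries reaches into the static range, and with the 3 h libraries fitted alone PSMD5 was the single member called, in a fit that called 1466 of 14470 genes against 222 of 15189 in the fit of all times. At 12 h the log2 fold change was -0.30 (adjusted p = 0.17) and at 24 h -0.082. PSMD9, another base chaperone, was at 64.4, 70.9 and 75.2 CPM in static and 80.1, 78.4 and 95.4 CPM in sheared 24 h libraries. Its groups do not overlap at 3 h or 24 h, and its log2 fold changes of 0.13, 0.26 and 0.27 in time order did not pass.

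PSME1 and PSME2 encode an interferon-inducible activator that opens the core without ATP. PSME1 had log2 fold changes of 0.10, -0.0036 and 0.050, and PSME2 had 0.084, 0.12 and -0.012, in time order. The immunoproteasome subunits PSMB8 and PSMB9, outside the rule, were not called either: PSMB8 had -0.10 and PSMB9 -0.55 at 24 h. Among 12 interferon genes listed, 8 were lower in sheared cells at 24 h, with a median of -0.88, and 12 of 12 mitosis genes were higher, with a median of 1.32, when 17.2% of all genes were called. At 24 h the static libraries held a mitosis sum of 416 to 734 CPM and their sheared partners one of 969 to 2971 CPM, the highest in the library with the highest PSMB3. The part of either list in the proteasome values was not tested. PSME3, a nuclear activator of the same family, had 99.7, 121 and 100.4 CPM in static and 76.0, 116 and 79.7 CPM in sheared 24 h libraries. The groups overlap and the log2 fold change of -0.26 did not pass (adjusted p = 0.12, edgeR). PSME4 had 0.0054, -0.10 and -0.15.

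Of the 39 members, 39 were within 1.2-fold of no change at 3 h, 35 at 12 h and 34 at 24 h. Over all 15189 genes, 11314, 8367 and 7438 were within 1.2-fold at these times. The 95% interval lay within 1.5-fold for 39, 37 and 38 of the members, beside 9089, 6977 and 6228 of all genes. The farthest members were PSMA7 (0.15) and PSMD5 (-0.25) at 3 h, PSMB10 (0.33) and PSMD5 (-0.30) at 12 h, and PSMB3 (0.44) and PSME3 (-0.26) at 24 h. The member closest to zero was PSME4 at 3 h (0.0054), PSME1 at 12 h (-0.0036) and PSMD13 at 24 h (-0.012). A direct test of whether the shear effect differed between times called 0 of 39 members for 24 h minus 12 h, where 0.665% of all genes were called. It called 0 of 39 for 12 h minus 3 h, where 1.41% of all genes were called. In both, 0 members had an unadjusted p below 0.05 in edgeR, beside 1256 and 2000 of 15189 genes. DESeq2 called 0 members in both, beside 190 and 402 of 15189 genes. The authors' deposited tables of sheared against static cells called 0 of 39 members at each time, when they called 0.951% of genes at 3 h, 5.54% at 12 h and 9.34% at 24 h. In the authors' deposited tables the members' median log2 fold change was 0.036, 0.039 and 0.094 in time order.

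**Figure D2:**
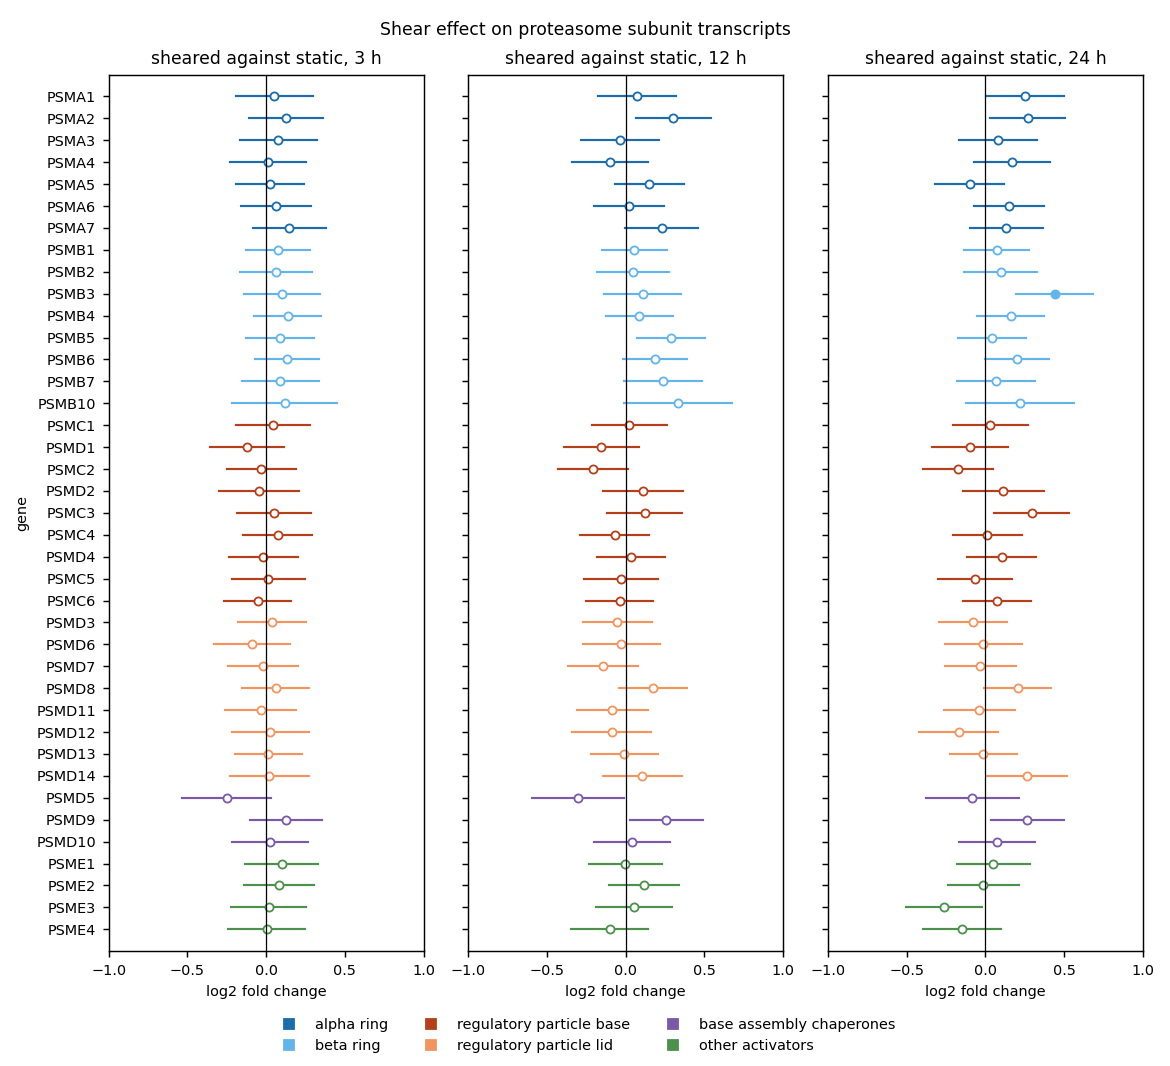
Points are fitted log2 ratios of sheared to static cells at 3 h, 12 h and 24 h and bars their 95% intervals, coloured by place in the proteasome, with filled points for an adjusted p below 0.05. Only PSMB3 at 24 h is filled, and the core genes lie mostly right of zero under TMM scaling.

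In static cells, the balance between core and regulatory transcripts differed between times, and it was a little higher in the sheared library of every pool. The step from 3 h to 12 h also crosses batch dates, so there time and batch cannot be told apart. The ratio of summed core to summed regulatory CPM was 0.731, 0.697 and 0.729 in the static 3 h libraries, 0.883, 0.873 and 0.890 in static 12 h and 0.927, 0.994 and 1.07 in static 24 h libraries. In sheared cells it was 0.795, 0.754 and 0.755 at 3 h, 0.963, 0.950 and 0.932 at 12 h and 1.02, 1.06 and 1.10 at 24 h. Within each treatment the groups of the 3 times do not overlap. The summed core level was 2497 ± 185 CPM at static 3 h, 2346 ± 68.8 at 12 h and 2552 ± 305 at 24 h (mean ± SD, n = 3). The summed regulatory level was 3475 ± 304, 2660.0 ± 55.7 and 2557 ± 187 CPM at the same times. The ranges of the core sum overlap between the 3 times, while the regulatory mean was lower at both later times. In such bulk RNA, fewer cells expressing a gene and less RNA per cell cannot be told apart.

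The shear difference was then taken pool by pool. The median log2 difference of the core genes minus that of the regulatory genes was 0.15, 0.10 and 0.058 in the 3 pools at 3 h, 0.19, 0.15 and 0.072 at 12 h and 0.19, 0.11 and 0.17 at 24 h. It was above zero in 9 of 9 pools. Over the fitted values the gap was 0.073, 0.14 and 0.16 on the log2 scale in time order. Subunits of a complex are not replicates, so these gaps carry no p-value.

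Transcript length moved with the same contrast. Core genes are short, with a median transcript of 964 bases against 1590 for the regulatory particle, and 12 of the 15 core genes but 3 of the 17 regulatory genes fall in the shortest of 5 equal length classes of all genes. In that class the median log2 fold change over all genes was 0.083, 0.15 and 0.13 for shear at 3 h, 12 h and 24 h, and in the longest class -0.073, -0.11 and -0.090. Spearman's rho between length and log2 fold change was -0.22, -0.23 and -0.18 across the 14732 genes with a length, which share their libraries and are not independent. After subtraction of the trend with length over all genes, the shear gap was 0.038, 0.082 and 0.068, and the core medians were 0.014, 0.021 and 0.045. For the static steps from 3 h to 12 h and from 12 h to 24 h, the shortest class had medians of 0.11 and 0.19 and the longest -0.070 and -0.26.

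**Figure D3:**
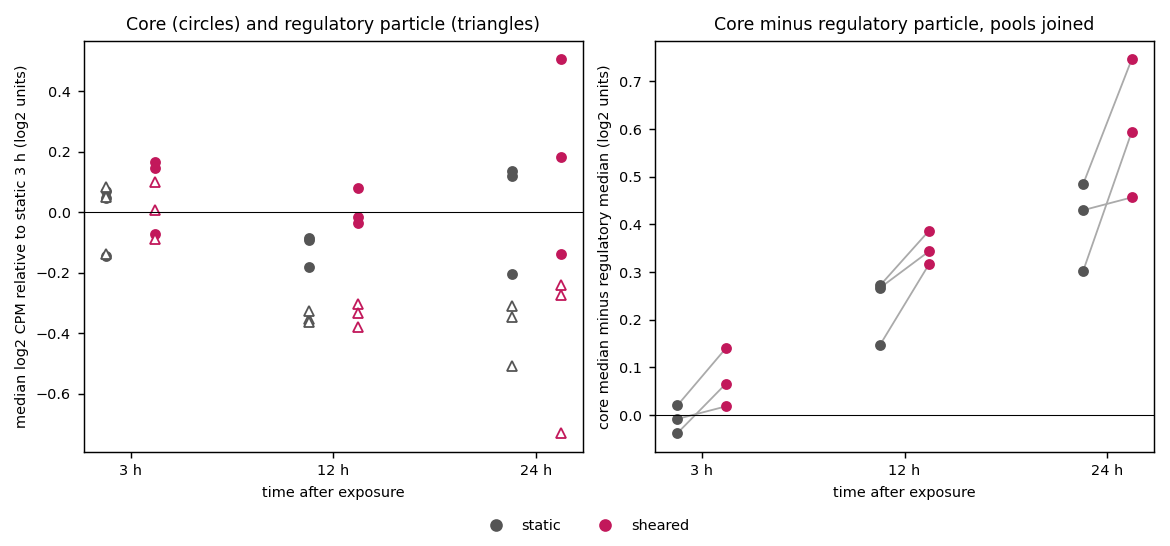
Left, the median log2 CPM of the core genes (circles) and of the regulatory genes (triangles) in each library, relative to static 3 h; right, their difference, with lines joining the static and sheared library of a pool. Static libraries run from near zero at 3 h to 0.301, 0.430 and 0.484 at 24 h, and every line rises from static to sheared.

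Cells that were never sheared had less regulatory particle RNA at 12 h than at 3 h. The batch date differs between these times too, so time and batch cannot be told apart in any 12 h versus 3 h value below. Of the 17 regulatory genes 10 were lower and 0 higher, all 17 fitted values were negative, and the median was -0.35, beside 0.0078 over all genes. Over all members 14 of 39 were lower, beside 22.9% of the 14804 genes tested, and 1 of 39 was higher, beside 21.7%. In the lid, PSMD12, a structural subunit, fell most. It had 189, 194 and 166 CPM at 3 h and 122, 125 and 98.9 CPM at 12 h. All 12 h libraries lie below all 3 h libraries (log2 fold change -0.67, SE 0.13, adjusted p = 0.000345, edgeR). PSMD3, another lid scaffold, had 195, 203 and 187 CPM at 3 h and 119.5, 120.4 and 146 CPM at 12 h, again without overlap, and fell by 0.60 on the log2 scale (adjusted p = 0.000982). PSMD11 fell by 0.39 and PSMD6 by 0.41. PSMD14 had 205, 198 and 173 CPM at 3 h and 168, 168 and 153 CPM at 12 h, which do not overlap, but its -0.24 did not pass (adjusted p = 0.10). The lid member nearest to zero was PSMD7 (-0.020).

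In the base, the 2 largest scaffolds and 4 of the 6 ATPases were called lower. PSMD1 had 183, 188 and 161 CPM at 3 h and 114, 127 and 106 CPM at 12 h, with no overlap (log2 fold change -0.62, SE 0.13, adjusted p = 0.000680, edgeR). PSMD2 had 814, 867 and 649 CPM at 3 h and 529, 542 and 607 CPM at 12 h, and fell by 0.48. Its 3 h libraries are all higher than its 12 h libraries. PSMC3 fell by 0.53, PSMC5 by 0.49, PSMC1 by 0.35 and PSMC2 by 0.34. PSMC4 had 138, 136 and 112 CPM at 3 h and 119, 119 and 121 CPM at 12 h, ranges that overlap, with a log2 fold change of -0.11 (95% interval -0.38 to 0.16). The receptor PSMD4 had -0.22 (95% interval -0.50 to 0.054) and was not called.

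The core particle had a smaller median change, at -0.13. Of its 15 genes 2 were lower, beside 22.9% of all genes, and 0 higher, beside 21.7%, and 4 values were positive. PSMA5, of the alpha ring, had 185, 176 and 154 CPM at 3 h and 123, 119 and 129 CPM at 12 h. The groups do not overlap, and it fell by 0.48 on the log2 scale (SE 0.12, adjusted p = 0.0040, edgeR). PSMB5 had 216, 203 and 205 CPM at 3 h and 153, 145 and 178 CPM at 12 h, also without overlap, and fell by 0.40 (adjusted p = 0.012). The other catalytic subunits were not called: PSMB6 had 0.082 and PSMB7 -0.23. PSMB10 had -0.39, with a wide interval of -0.82 to 0.049. PSMA7, the most abundant member per length, was the member nearest to zero at -0.0095. The core minus regulatory gap was 0.22, and 0.11 after subtraction of the length trend.

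PSME3 had the largest change of any member. Its transcript stood at 200.2, 207 and 193 CPM at 3 h and at 101, 108 and 103 CPM at 12 h, and stayed at 99.7, 121 and 100.4 CPM at 24 h. The 3 h libraries are far above all later ones, and the fitted log2 difference was -0.95 (SE 0.12, adjusted p = 7.06e-06, edgeR). PSME1, PSME2 and PSME4 were not called (0.26, -0.32 and 0.16). Among the base chaperones PSMD10, also known as the oncoprotein gankyrin, was the single member called higher. It had 83.1, 77.0 and 69.0 CPM at 3 h and 92.9, 95.2 and 103 CPM at 12 h, without overlap, a log2 fold change of 0.34 (adjusted p = 0.026). Of the 39 fitted values 7 were positive. PSMB4 and PSME1 were also higher at 12 h without overlap, and neither was called. PSMD5 fell by 0.43 and PSMD9 had -0.086, not called.

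In all 14 alternatives run for this comparison, 8 of the 15 calls held: PSMA5, PSMC3, PSMC5, PSMD1, PSMD2, PSMD3, PSMD12 and PSME3. The other 7 lost the threshold when single static libraries were left out, with adjusted p between 0.052 and 0.19 (edgeR) and an unchanged sign. Without static 3 h replicate 1, PSMB5 had -0.37, PSMC1 -0.31, PSMC2 -0.31 and PSMD5 -0.41. Without 3 h replicate 2, PSMC1 had -0.26, PSMC2 -0.29, PSMD10 0.35, PSMD11 -0.37, PSMD5 -0.40 and PSMD6 -0.37, and without 3 h replicate 3 PSMD10 had 0.27. Without 12 h replicate 1, PSMB5 had -0.37, PSMC1 -0.35, PSMC2 -0.33, PSMD10 0.37 and PSMD11 -0.37. Without 12 h replicate 2, PSMB5 had -0.33, PSMC1 -0.33 and PSMD10 0.35. Without 12 h replicate 3, PSMC1 had -0.35, PSMC2 -0.29, PSMD10 0.31 and PSMD5 -0.31. PSMC1, PSMC2 and PSMD10 also lost it with all 18 libraries in the fit, and PSMD10 without a filter on low counts. The sum of the 3 nuclear-retained RNAs was 69.7 to 90.9 CPM at static 3 h and 134 to 156 CPM at static 12 h, and the fibroblast and endothelial list summed to 101 to 113 CPM at 12 h. The part of either in these values was not tested.

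From 12 h to 24 h in static cells, few members changed. Over the 39 members 3 were higher, beside 16.9% of all genes, and 2 were lower, beside 15.6%. The core median was 0.17 and the regulatory median -0.027, a gap of 0.20 that was 0.11 after subtraction of the length trend. The sign of the core median depends on the setting, since it was -0.021 after that subtraction and -0.023 with total counts. The core genes called higher were PSMB5 and PSMA5, in a step that shares its 12 h libraries with the one before. PSMB5 had 153, 145 and 178 CPM at 12 h and 201, 219 and 198 CPM at 24 h. All 24 h libraries are above all 12 h ones, and the 24 h values span those of 3 h (log2 fold change 0.37, adjusted p = 0.025, edgeR). PSMA5 had 123, 119 and 129 CPM at 12 h and 142, 157 and 172 CPM at 24 h, a rise of 0.34 (adjusted p = 0.042). Its 24 h libraries are also all above its 12 h libraries. PSMB6, PSMB7, PSMB10 and PSMA7 had 0.16, 0.32, 0.32 and 0.24, none called.

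In the regulatory particle PSMD14 alone was called. It had 168, 168 and 153 CPM at 12 h and 122, 135 and 138 CPM at 24 h, with no overlap, and fell by 0.32 (adjusted p = 0.048, edgeR). PSMD1 had -0.28, PSMD11 -0.19, PSMC4 0.076 and PSMD4 0.26, none past the threshold. PSMC2 was nearest to zero (0.011). PSMD5 fell again, from 38.6, 42.4 and 32.0 CPM at 12 h to 28.7, 25.5 and 24.2 CPM at 24 h, after 51.6, 52.5 and 47.2 CPM at 3 h. The 3 static groups of PSMD5 do not overlap, and the log2 fold change of the later step was -0.54 (SE 0.14, adjusted p = 0.0073).

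PSME1 rose most. It had 139, 143 and 129 CPM at 12 h and 146, 233 and 256 CPM at 24 h, and 1 of the 24 h libraries is only just above the 12 h range (log2 fold change 0.62, SE 0.16, adjusted p = 0.0079, edgeR). Its partner PSME2 had 93.3, 90.0 and 103 CPM at 12 h and 85.5, 152 and 150.2 CPM at 24 h. The same first library is low in PSME2, whose groups overlap, and the log2 fold change of 0.43 did not pass (adjusted p = 0.061). PSME3 (0.032) and PSME4 (-0.10) were not called. Outside the rule, the immunoproteasome subunit PSMB8 was higher (0.56, adjusted p = 0.044, edgeR). It had 16.4, 18.8 and 23.1 CPM at 12 h and 18.3, 31.3 and 36.8 CPM at 24 h, so the groups overlap. PSMB9 was low, at 1.86, 4.62 and 4.91 CPM in the 24 h libraries, and not called (0.21). Of 12 interferon genes 10 rose at this step, and their sum ran from 1140 to 1247 CPM at 12 h and from 1632 to 3001 CPM at 24 h. Of 12 mitosis genes 11 fell, with sums of 1278 to 1411 CPM at 12 h and 416 to 734 CPM at 24 h. Their part in the proteasome values was not tested.

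PSME1 was called in all 14 alternatives of this comparison, the other 4 were not. PSMD5 had -0.44 (adjusted p = 0.054, edgeR) without static 12 h replicate 2. PSMB5 had 0.34, 0.31 and 0.31 without 12 h replicate 1, 12 h replicate 2 and 24 h replicate 2, and 0.18 with total counts. PSMA5 lost the threshold without 3 h replicates 1 or 2 (0.34 each), 12 h replicates 1 or 2 (0.33 and 0.31) and 24 h replicates 2 or 3 (0.33 and 0.26), and had 0.15 with total counts. PSMD14 lost it without the same 3 h replicates (-0.32 each), without 12 h replicates 1 or 2 (-0.30 and -0.29) and without 24 h replicates 1 or 2 (-0.27 and -0.34). PSMA5 and PSMD14 also lost it without a filter on low counts and with all 18 libraries in the fit. With total counts as the scale 10 members were lower and 1 higher, and that scale put the median of all genes at -0.18. It called 5072 of 14804 genes, against 4805 in the main fit.

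**Figure D4:**
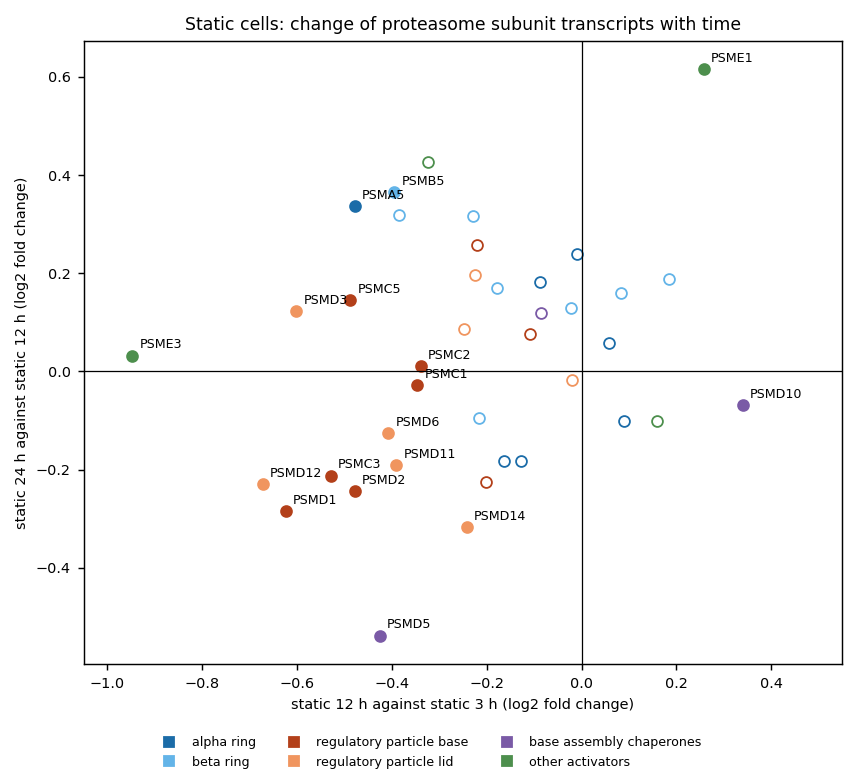
Each point is a member, placed by its log2 fold change from 3 h to 12 h (horizontal) and from 12 h to 24 h (vertical) in static cells, with filled, named points for those past the threshold in either step. All regulatory particle genes lie left of zero on the horizontal axis, PSME3 is farthest left and PSME1 highest; the axes share the 12 h libraries.

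Genes that build, regulate and feed the proteasome were taken from lists beside the members. Of 17 tested assembly and associated factors, none was called for shear at 3 h, and 4 were higher and 1 lower at 12 h, beside 10.8% of all genes called in either direction. These were the core assembly chaperones PSMG2 (0.40), PSMG3 (0.42) and PSMG1 (0.50), the inhibitor PSMF1 (0.33) and, lower, ZFAND5 (-0.42), a proteasome-binding zinc finger protein. At 24 h PSMG2 (0.51) and PSMG1 (0.52) were higher and ZFAND5 (-0.38) lower, beside 17.2% of all genes. PSMG1 had 17.8, 21.2 and 20.5 CPM in static and 18.6, 42.0 and 28.6 CPM in sheared 24 h libraries. The sheared library of each 24 h pool is the higher one, by little in the first. POMP, the core maturation factor, had 0.22, 0.30 and 0.22 in time order and was not called. In static cells from 3 h to 12 h, 6 of the 17 fell, beside 22.9% of all genes, led by PSMG1 (-1.19) and the proteasome-bound deubiquitinases UCHL5 (-0.79) and USP14 (-0.50), and 1 rose, beside 21.7%. From 12 h to 24 h 2 rose and 3 fell, beside 16.9% and 15.6%, with PSMG3 (0.62), PAAF1 (-0.46) and PSMG1 (-0.49) the smallest in p.

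The transcription factor NFE2L1 was not called in any comparison. It had 287, 305 and 329 CPM in static 3 h, 439.7, 369 and 389 CPM in static 24 h and 337, 285 and 361 CPM in sheared 24 h libraries. Its shear log2 fold changes were -0.012, -0.064 and -0.29 in time order, and its activity, which depends on processing of the protein, is not seen in RNA. Of 8 genes in that list, MAFK, a small partner protein, was higher after shear at 3 h (1.25, adjusted p = 0.0060, edgeR), and none was called at 12 h or 24 h. In static cells by 12 h the related factor NFE2L2 fell (-0.61), its competitor BACH1 rose (0.74), and MAFF (0.41) and MAFG also rose. Among genes of the wider ubiquitin pathway, the receptor SQSTM1 (-0.49) and the segregase VCP (-0.35) were lower and RPS27A (0.55) higher after shear at 12 h. At 24 h RPS27A was at 0.51, SQSTM1 at -0.47 and the VCP cofactor NPLOC4 at -0.39, all called. In static cells RPS27A (0.55) rose by 12 h, while the shuttle factors UBQLN4 (-0.54), UBQLN1 (-0.37) and UBQLN2 (-0.41) fell.

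**Figure D5:**
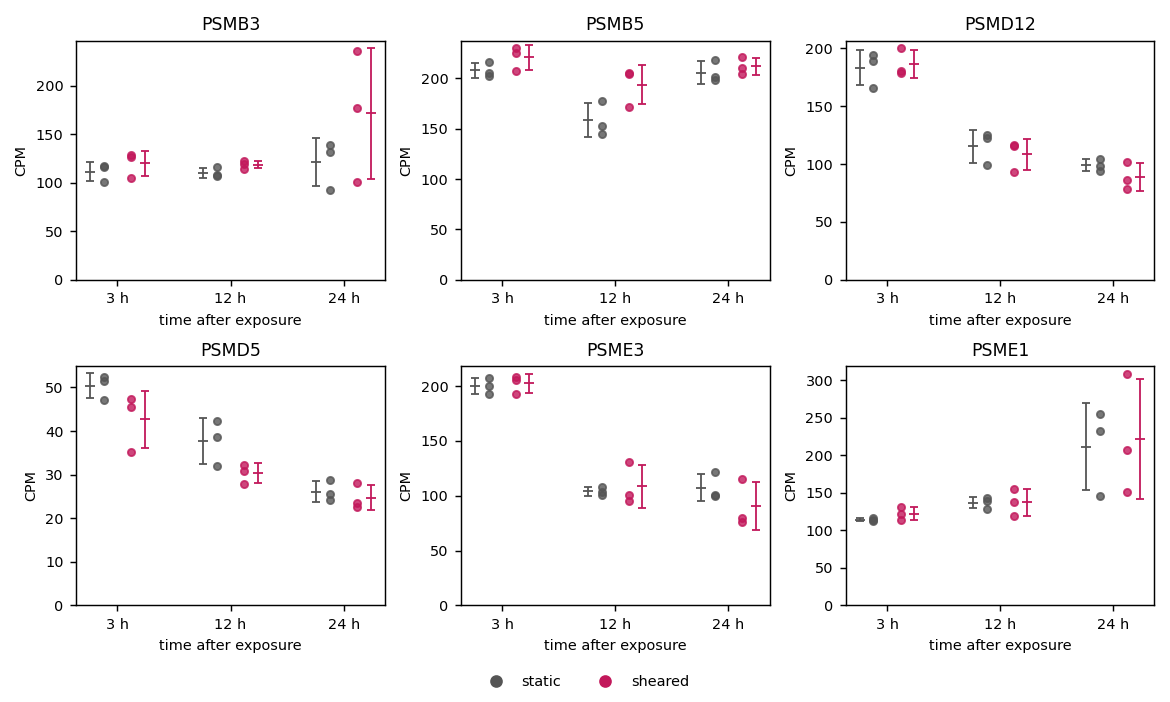
Each panel shows the CPM of 1 gene in the 18 libraries by time after exposure, with points for libraries and a bar for the mean ± SD of 3, grey for static and pink for sheared cells, on axes that start at 0. PSMD12 and PSME3 drop between 3 h and 12 h in both treatments, PSMB5 is lowest in static 12 h cells, and the spread of PSMB3 and PSME1 is widest in sheared 24 h cells.

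Some counts could mix genes. The strand setting of the counting is not given in the sources used here, and exons of PSMC1 overlap NRDE2 on the other strand by up to 3157 bases, those of PSMC5 overlap FTSJ3 by 332 bases and those of PSMD13 overlap SIRT3 by 219 bases. PSMD7 and PSMD11 also overlap genes on the other strand, and PSMD9 shares 436 bases with WDR66 on the same strand. RefSeq names 51 pseudogenes of 20 members, of which 0 were rows of the count table, so reads from processed copies could be counted to the parent or lost. Values of these genes are uncertain to that extent.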

How the data were processed

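Cytosolic RNA of 18 libraries was used, grouped by treatment and time per the labels. Per the submitters' processing notes, STAR served for alignment, GRCh38.p13 as the genome and DESeq2 for testing. How reads were assigned to genes, and with which strandedness, is not given in the sources used here. Raw counts by the authors fill the deposited table, 1 row per Gene ID, not normalized. The authors' deposited tables, 1 per time, hold log2 ratios of sheared to static cells and, per the file headers, p-values and adjusted p-values. Columns of the 3 h libraries were matched by time and letter, the treatment letter being read as in the later names.

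Symbols came from RefSeq (27745 of 28395 Gene IDs), and promoters from RefSeq for GRCh38.p14. Genes were kept by filterByExpr (minimum count 10, minimum total 15). The main test was the legacy robust quasi-likelihood F test of edgeR 4.0.16 with TMM factors and Benjamini-Hochberg adjustment over all genes at 0.05. Shear was fitted on all 18 libraries with 9 pool blocks and 1 shear effect at each time (15189 genes, 6 residual degrees of freedom). Change with time in static cells was fitted on the 9 static libraries (14804 genes). Standard errors were obtained by dividing the absolute log2 ratio by the root of F. CPM values are TMM-scaled, without a pseudocount, at a depth of 16400487 to 25862360 counts. Fits were tested on simulated data. Between replicates, chi-square divided by its degrees of freedom was 4.30 to 134, above counting noise, and no libraries were identical.

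Per the series' design text, sheared and static samples of 1 replicate within a time come from 1 pool, which is the source of the pairing. Deviations from the group mean of same-numbered sheared and static libraries correlated at 0.0881 to 0.299 (3 h), -0.148 to 0.245 (12 h) and 0.379 to 0.504 (24 h), across genes, and those of unequal number at -0.242 to 0.130, -0.385 to 0.233 and -0.296 to -0.0924. At 3 h and at 12 h these ranges overlap, so there the correlations alone do not separate the pairs.

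The members and gene lists were chosen with earlier results of these data known. Named are 15 members and PSMB8, PSMB9, POMP and NFE2L1 in all comparisons, called members (up to 8 by p in each direction), those nearest to and farthest from zero, and up to 3 of each other list by p, beside further members for completeness. Some genes of the ubiquitin pathway list are not reported here. Alternatives were RLE size factors, total counts, no filter, DESeq2 1.42.0, no block, 1 time alone, all 18 libraries for the static steps, each library or pair left out and, chosen after seeing the data, a length trend (lowess over all genes, fraction 0.3) subtracted.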

Additional observations from a re-analysis of the deposited data

How the results depend on the processing

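The direction of several shear medians, and of the core and all-member medians for static 24 h versus 12 h, rests on the scale. The single shear call rests on few libraries. For static 12 h versus 3 h, total counts called the same 14 members lower and 1 higher as the main fit. With total counts the shear medians of core, regulatory and all members were 0.037, -0.036 and -0.0051 at 3 h, -0.046, -0.18 and -0.11 at 12 h, and -0.013, -0.18 and -0.092 at 24 h, with 2 members called at 24 h, both lower (PSMC2 and PSME3). That scale put the median of all genes at -0.16 for shear at 12 h and -0.18 at 24 h, and gave 11 called members, a regulatory median of -0.21 and a median of all members of -0.13 for static 24 h versus 12 h. It called 3192 of 15189 genes for shear at 24 h and 5072 of 14804 for static 24 h versus 12 h. With 1 time alone 1 member was called at 3 h and 0 at 24 h, and with no replicate block 0 were called at 24 h; for the members the block changed no other call. No paired analysis was possible for the static steps because times share no pool. With all 18 libraries 3 members were called for static 24 h versus 12 h. After the length trend was subtracted, an alternative chosen after seeing the data, the core median was 0.014 at 3 h and 0.021 at 12 h, the median of all members 0.011 at 3 h and -0.055 at 12 h, the gap between core and regulatory particle 0.068 at shear 24 h and 0.11 for static 12 h versus 3 h, and the regulatory median -0.14 for static 24 h versus 12 h. The same subtraction put the median of all members at -0.023 for shear at 24 h and -0.025 for static 24 h versus 12 h, and the core median at -0.021 for static 24 h versus 12 h (-0.023 with total counts) and -0.21 for static 12 h versus 3 h, and the regulatory median at -0.024 for shear at 3 h. The cause of each of these changes was not tested. Leaving out 1 pair of libraries gave 0 to 2 called members for shear at 12 h (2 without 24 h replicate 3) and 0 to 3 at 24 h (0 without 24 h replicate 3, 3 without 24 h replicate 1). Leaving out 1 static library gave 9 to 17 for 12 h versus 3 h (9 without 3 h replicate 2) and 1 to 9 for 24 h versus 12 h: 3 without 3 h replicate 1 or 2, 2, 1 and 8 without 12 h replicates 1, 2 and 3, 9 without 24 h replicate 1 and 3 without 24 h replicate 2. The number of all genes called changed with these fits too. It was 5335 of 15020 where 9 members and 7198 of 15151 where 17 members were called for 12 h versus 3 h. For 24 h versus 12 h it was 2854 of 15141 where 1 member and 5795 of 15151 where 9 members were called. For shear at 24 h it was 1550 of 15448 without 24 h replicate 3 and 2107 of 15536 without 24 h replicate 1. Called members lost the threshold 53 times over all alternatives and kept it 242 times, and no called member changed sign. The regulatory medians of shear at 3 h and 24 h and of static 24 h versus 12 h, all near zero, also changed sign when single libraries were left out (up to 0.080 for shear at 24 h without 24 h replicate 1), as did the median of all members for static 24 h versus 12 h without 24 h replicate 2 (-0.037) and the regulatory median of shear at 24 h with RLE size factors (0.0024) and DESeq2 (0.0026). Depth limits PSMB10, the tested member of lowest CPM, most.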

Other observations

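The chaperonin CCT, another complex of many subunits that folds actin and tubulin, gives a second complex beside the proteasome. In static cells 8 of 8 CCT genes were lower at 12 h than at 3 h, beside 22.9% of all genes, with a median log2 fold change of -0.87, beside -0.35 for the regulatory particle and -0.13 for the core particle. The batch date differs between these times as well. CCT2 had the lowest value at -1.18 and TCP1 the highest at -0.58 (adjusted p = 0.00052, edgeR). From 12 h to 24 h none of the 8 was called. After shear, 0 of 8 were called at 3 h and at 12 h, and 1 (CCT4, 0.37, adjusted p = 0.041, edgeR) at 24 h, beside 1.46%, 10.8% and 17.2% of all genes. At 12 h and at 24 h 8 of 8 fitted values were positive, with medians of 0.24 and 0.22. DDI2, the protease that activates NFE2L1, was lower in static cells at 24 h than at 12 h (-1.76, SE 0.43, adjusted p = 0.0062, edgeR). Its level was low, from 4.04 to 4.59 CPM in static 12 h libraries and at 2.69, 0.877 and 0.409 CPM in static 24 h libraries. The groups do not overlap, but the 24 h values spread widely, so the size of the DDI2 change is uncertain.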
